A study of Mus musculus with 8 samples.

Results

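The 7 genes described here, Igtp, Irgm1, Irgm2, Iigp1, Ifi47, Tgtp1 and Tgtp2, encode mouse immunity-related GTPases (IRGs). They were chosen by gene symbol, each symbol had 1 row in the deposited tables, and they are 7 of the 55487 gene IDs listed there. Their UMI counts (UMIs are molecular tags, 1 per captured RNA molecule) were followed in hippocampal cells of mice given diphtheria toxin. The toxin kills cells that carry its receptor (DTR), and in these animals the receptor is driven by Foxp3, the defining transcription factor of regulatory T cells. One 3' single-cell library was made from Foxp3-DTR+ mice (DTRpos), in which the toxin depletes regulatory T cells, and 1 from littermate Foxp3-DTR- controls (DTRneg), which received the same toxin. Each library pooled 2 mice, so the genotypes have 1 sample each, and no test of DTRpos against DTRneg was possible. The hippocampal cells were sorted as live and negative for CD45 and Thy1, a gate against immune cells and neurons, and age and sex were not given in the sources used here. The meningeal T-cell samples of the study were not used.

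IRGs are made in response to interferons, most strongly interferon-gamma, and protect mouse cells against vacuolar parasites and bacteria. The effectors Iigp1, Ifi47, Tgtp1 and Tgtp2 assemble on the vacuole around the intruder and break its membrane. The regulators Irgm1, Irgm2 and Igtp (also called Irgm3) sit on the cell's own membranes, hold the effectors inactive there, and so direct them to the intruder. Interferon-gamma acts at gamma-activated sites (GAS) and, through IRF1, at interferon-stimulated response elements (ISRE), and type I interferons act through the ISRE as well. Brain endothelial cells, which form the blood-brain barrier, carry receptors for both kinds of interferon.

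The 6 members other than Iigp1 lie in clusters on chromosome 11 (mm10, GENCODE M21 annotation). Irgm1 (48861968-48871683, minus strand), Tgtp1 (48985327-48994172, minus), Tgtp2 (49057194-49064206, minus) and Ifi47 (49076587-49096974, plus) form 1 stretch. Igtp (58199556-58207591, plus) and Irgm2 (58199618-58222782, plus) form another and overlap on the same strand. Tgtp1 and Tgtp2 are near-identical copies. Of the 90-base stretches in the last 500 bases of the Tgtp1 transcript, where 3' reads fall, 100% (411 of 411) also occur in Tgtp2, so the split of UMIs between those genes is uncertain. Igtp and Irgm2 shared 0 of 411 such stretches at their 3' ends.

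The promoters are shown because interferon motifs at the start sites are the regulatory feature that the family is known for. Each RefSeq promoter (GRCm38.p6) runs from 250 bases before to 50 bases after the start. The table held 1 promoter for 6 of the 7 members and was searched on both strands. The GAS (TTCNNNGAA) was found in 4 of these 6, against 8.30% of all 32851 promoters, and the ISRE (GAAA, any 2 bases, GAAA) in 5 of 6, against 3.44%. In Igtp, Irgm2, Tgtp1 and Tgtp2 both stood in 1 fixed order, with the ISRE starting 2 bases after the end of the GAS and no overlap between them. That arrangement occurred in 5 of the 32851 promoters (0.0152%), and the remaining one belonged to Gm12185, a gene whose name was read from the table after the search. In the 60-base stretches below, written 5' to 3' on the gene's strand, capitals mark the GAS and the ISRE.
Igtp, chr11:58199487-58199546, plus: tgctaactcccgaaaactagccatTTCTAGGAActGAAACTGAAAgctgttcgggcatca
Irgm2, chr11:58214878-58214937, plus: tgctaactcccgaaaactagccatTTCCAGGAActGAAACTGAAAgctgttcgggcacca
Tgtp1, chr11:48992299-48992358, minus: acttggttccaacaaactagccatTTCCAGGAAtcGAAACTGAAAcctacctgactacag
Tgtp2, chr11:49064258-49064317, minus: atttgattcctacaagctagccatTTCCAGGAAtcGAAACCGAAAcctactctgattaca
Irgm1, chr11:48871421-48871480, minus: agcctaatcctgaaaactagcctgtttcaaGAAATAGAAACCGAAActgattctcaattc
The Igtp and Irgm2 stretches were identical at 58 of 60 positions and those of Tgtp1 and Tgtp2 at 46 of 60. The arrangement is therefore shared by a regulator pair and an effector pair, and the GAS starts 45, 75, 88 and 81 bases upstream of the RefSeq start in Igtp, Irgm2, Tgtp1 and Tgtp2. By the GENCODE coordinates given above, the Irgm2 and Tgtp1 stretches lie inside the annotated gene, so the start differs between annotations. Irgm1 had 2 overlapping ISREs and no GAS match, and its stretch also lies in an exon of a non-coding transcript of the gene. The Ifi47 window held neither string of letters.

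After removal of low-quality cells and doublets, 6863 cells remained in DTRneg (median 6003 UMIs) and 5691 in DTRpos (median 4509). A cell was placed in a class when its marker (Cldn5, Rgs5, Aqp4, Pdgfra, Mog or Dcn) had at least 2 UMIs and at least 3 times the sum of the other 5, a rule that used none of the members and placed 83.4% and 80.6% of cells. The Cldn5 class held 477 cells in DTRneg and 354 in DTRpos, the Rgs5 class 189 and 153, the Aqp4 class 636 and 663, the Pdgfra class 664 and 803, the Mog class 3711 and 2578, and the Dcn class 49 and 37. In both libraries all 6 further endothelial markers were highest in the Cldn5 class, all 6 mural markers in the Rgs5 class, and all 6 astrocyte, oligodendrocyte precursor and mature oligodendrocyte markers in the Aqp4, Pdgfra and Mog classes. These 5 classes are called endothelial-like, mural-like, astrocyte-like, precursor-like and oligodendrocyte-like below. The Dcn class is left unnamed: its fibroblast markers summed to 9506 and 9779 CPM (the usual depth-scaled unit, here a gene's UMIs relative to all UMIs of the class), but Vtn and the other mural markers summed to 13213 and 13400 CPM. Of all barcodes, 18 occurred in both libraries.

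The family was concentrated in the endothelial-like class. That class held 625 of the 945 family UMIs in DTRneg (66.1%) and 650 of 898 in DTRpos (72.4%), with 6.95% and 6.22% of the cells. Summed over the 7 members, its level was 617 CPM (95% Poisson interval 570 to 668) in DTRneg and 975 CPM (902 to 1053) in DTRpos. Intervals here cover counting error only, not the spread between mice or the grouping of UMIs in cells. The next class was the mural-like class in DTRneg, at 93.0 CPM, and the Dcn class in DTRpos, at 57.0 CPM from 6 UMIs. The oligodendrocyte-like class, the largest, was lowest at 1.48 and 1.66 CPM, so the endothelial-like level was 417 times higher in DTRneg and 587 times higher in DTRpos.

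Classes, unlike genotypes, have a sum in each of the 2 libraries and could be tested. With edgeR's quasi-likelihood test over 12 sums (6 classes in 2 libraries, library as a block), all 7 members were higher in the endothelial-like class than in each of the other 5 classes. Of all 13699 genes tested, 6.96% met that criterion. The largest of the 35 adjusted p-values (Benjamini-Hochberg over all genes and 15 class pairs) was 1.22e-03, for Tgtp1 against the Dcn class, where Tgtp1 had 0 UMIs in either library. The 7 members were also highest in the endothelial-like class within each library alone. Calls against the small Dcn class were the least firm: Tgtp1 lost that call after thinning to 1500 UMIs a cell (adjusted p = 0.0549, edgeR). Under DESeq2, Tgtp1 and Tgtp2, both at 0 in most other classes, passed against none of the 5 and the remaining 5 members passed against all.

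**Figure D1:**
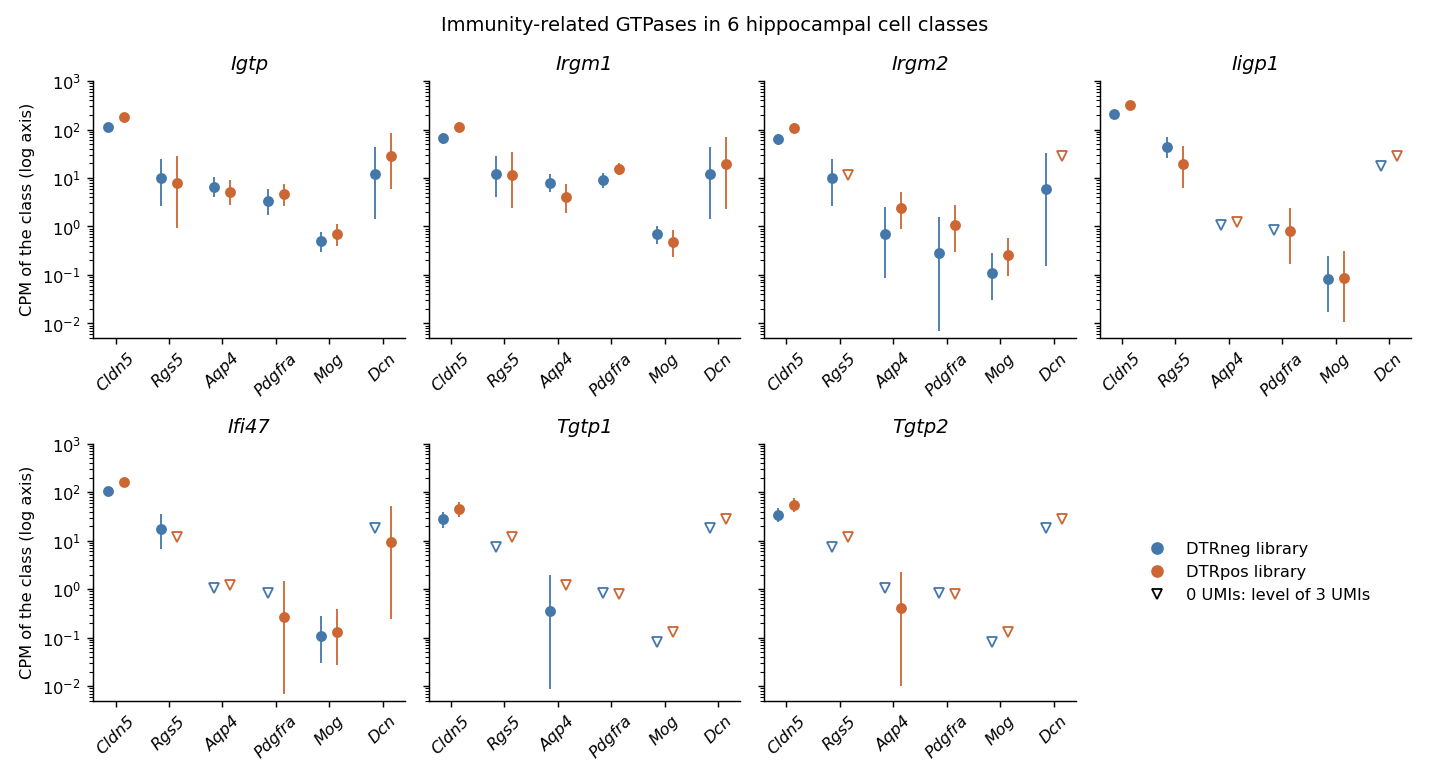
Level of each member in 6 marker classes, in CPM of the class on a log axis, for the DTRneg (blue) and DTRpos (orange) libraries. Bars are 95% Poisson intervals, and open triangles mark classes with 0 UMIs, drawn at the level that 3 UMIs would give. All 7 members were highest in the Cldn5 class, and Igtp and Irgm1 had counts in every class.

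Of the regulators, Igtp and Irgm1 had UMIs in every class of both libraries. Irgm1, which is needed for control of mycobacteria and for normal autophagy, had 66.2 CPM in DTRneg and 113 CPM in DTRpos in the endothelial-like class. It had 9.16 and 15.4 CPM in the precursor-like class (33 and 57 UMIs), 8.04 and 4.03 CPM in the astrocyte-like class (23 and 10 UMIs), and 12.2 and 11.7 CPM in the mural-like class (5 and 3 UMIs). The oligodendrocyte-like class stood below these in both libraries, at 0.686 and 0.481 CPM. In edgeR's test Irgm1 was higher in each of the Dcn, precursor-like, mural-like and astrocyte-like classes than in the oligodendrocyte-like class (largest adjusted p = 0.00270, for the Dcn class). The smallest of these differences was 3.21 on the log2 scale, for the astrocyte-like class (SE 0.44, adjusted p = 1.84e-11). Of all genes, 15.4% (Dcn), 37% (precursor-like), 20.1% (mural-like) and 33.8% (astrocyte-like) were called higher in that direction. No neighbouring pair among those 4 classes was called (adjusted p 0.551 to 0.826).

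Igtp, a regulator that lies on the endoplasmic reticulum and lipid droplets, was at 113 and 179 CPM in the endothelial-like class. The small Dcn class had 11.9 and 28.5 CPM from 2 and 3 UMIs, and the mural-like class 9.79 and 7.78 CPM from 4 and 2. Igtp then stood at 6.65 and 5.24 CPM in astrocyte-like cells, 3.33 and 4.59 CPM in precursor-like cells and 0.494 and 0.700 CPM in oligodendrocyte-like cells. The difference between the Dcn and mural-like classes was not called (adjusted p = 0.458, edgeR), nor was that between the mural-like and astrocyte-like classes (adjusted p = 0.864). The step from astrocyte-like to precursor-like cells passed (log2 1.23, SE 0.43, adjusted p = 0.0119, edgeR; 26.9% of all genes), as did that from precursor-like to oligodendrocyte-like cells (log2 1.997, SE 0.44, adjusted p = 2.72e-05; 37% of all genes). Igtp was also higher in the Dcn class than in precursor-like cells (adjusted p = 0.0271, edgeR, against 12.7% of all genes). Its Dcn level was close to that of endothelial markers in the class, given below with free RNA. Oligodendrocyte-like cells were below all 4 of these classes (largest adjusted p = 9.16e-04, edgeR, for the mural-like class).

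Irgm2, which associates with the Golgi apparatus, had 63.2 and 107 CPM in the endothelial-like class and at most 9.79 CPM elsewhere. Its other classes held 0 to 6 UMIs per library, and none of the 4 steps between neighbours in their order was called (adjusted p 0.130 to 0.80, edgeR). Over wider steps, Irgm2 was higher in mural-like than in precursor-like cells (adjusted p = 0.0217, edgeR) and oligodendrocyte-like cells (adjusted p = 0.00176), and in astrocyte-like than in oligodendrocyte-like cells (adjusted p = 0.00303). So were 18.1%, 20.1% and 33.8% of all genes. The 4 mural-like UMIs were all in DTRneg.

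Among the effectors, Iigp1, which lies on chromosome 18 and is the best studied effector, was at 206 CPM in DTRneg and 318 CPM in DTRpos in endothelial-like cells. Its second class was the mural-like one, with 44.0 CPM (18 UMIs in 9 cells) and 19.5 CPM (5 UMIs in 5 cells). Mural-like cells were above precursor-like cells, which held 0 and 3 UMIs (log2 6.57, SE 0.71, adjusted p = 1.77e-17, edgeR; 18.1% of all genes). They were also above the astrocyte-like, oligodendrocyte-like and Dcn classes (largest adjusted p = 1.18e-03, edgeR, for the Dcn class), which 17.9%, 20.1% and 8.12% of all genes were. In the astrocyte-like class it had 0 UMIs in both libraries, which puts the endothelial-like level at least 197-fold higher in DTRneg and at least 263-fold higher in DTRpos against a floor of 3 UMIs per library.

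Ifi47 had 107 and 159 CPM in endothelial-like cells, and 17.1 CPM (7 UMIs) and 0 in mural-like cells. It had 0 UMIs in both astrocyte-like sums, 0 and 1 UMI in precursor-like cells and in the Dcn class, and 4 and 3 in oligodendrocyte-like cells. Mural-like cells were called higher than astrocyte-like (adjusted p = 3.58e-05, edgeR), precursor-like (adjusted p = 1.01e-05) and oligodendrocyte-like cells (adjusted p = 6.60e-07), with all 7 mural-like UMIs from DTRneg. Of all genes, 17.9%, 18.1% and 20.1% were called in these directions. Against a floor of 3 UMIs its endothelial-like level was at least 102-fold and at least 132-fold that of astrocyte-like cells. Tgtp1 (27.7 and 45.02 CPM) and Tgtp2 (34.6 and 55.5 CPM) had 28 and 30 UMIs and 35 and 37 UMIs in endothelial-like cells. Over the 5 other classes and both libraries each had 1 UMI, in an astrocyte-like cell. Cells outside the 6 classes held 10 and 3 Tgtp1 UMIs and 5 and 4 Tgtp2 UMIs. No pair among the 5 other classes was called for Tgtp1 or Tgtp2 by edgeR.

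The subgroups were also compared by their share of the family's UMIs. The regulators Igtp, Irgm1 and Irgm2 contributed 245 of 625 UMIs in endothelial-like cells of DTRneg (39.2%, 95% Clopper-Pearson interval 35.4 to 43.2%) and 265 of 650 in DTRpos (40.8%, 37.0 to 44.7%). In astrocyte-like cells they contributed 44 of 45 UMIs (97.8%, 88.2 to 99.9%) and 29 of 30 (96.7%, 82.8 to 99.9%). Precursor-like cells had 46 of 46 (100%, 92.3 to 100%) and 78 of 82 (95.1%, 88.0 to 98.7%). Oligodendrocyte-like cells had 47 of 54 (87.0%) and 33 of 38 (86.8%). Mural-like cells had a share nearer to that of endothelial-like cells in DTRneg, with 13 of 38 (34.2%, 19.6 to 51.4%), and 5 of 10 in DTRpos (18.7 to 81.3%). The split into these subgroups is the textbook one, but the comparison of their shares was made after the values had been seen. It was not tested. The intervals of endothelial-like and of astrocyte-like, precursor-like and oligodendrocyte-like cells did not overlap in either library, but they treat each UMI as an independent draw. UMIs were grouped in cells: the 5 richest oligodendrocyte-like cells held 23 of the 54 family UMIs in DTRneg and 19 of the 38 in DTRpos. The intervals are therefore too narrow to decide the comparison.

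**Figure D2:**
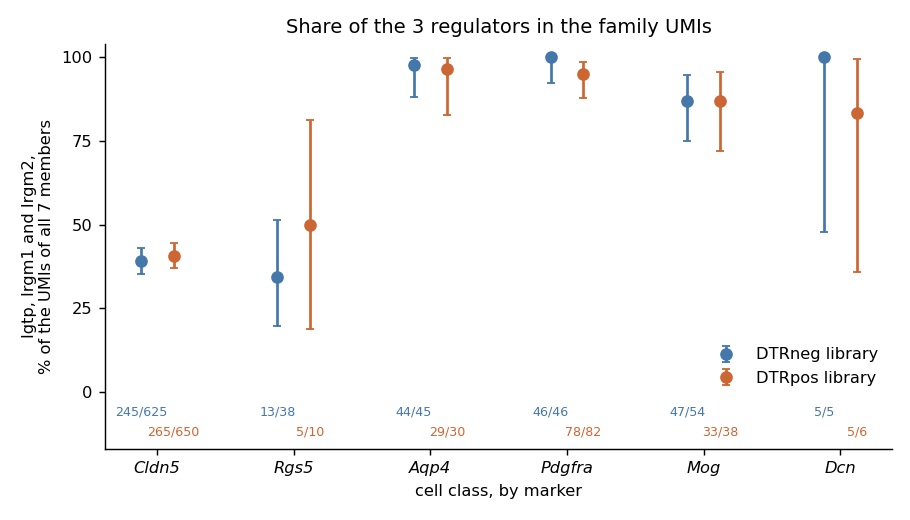
Share of the family's UMIs that came from Igtp, Irgm1 and Irgm2 in each marker class, with 95% Clopper-Pearson intervals, for DTRneg (blue) and DTRpos (orange). Numbers under the points give regulator UMIs over family UMIs. The share was 39.2% and 40.8% in the Cldn5 class and 86.8% to 100% in the Aqp4, Pdgfra and Mog classes.

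RNA free in the suspension can give UMIs to cells that do not make a gene, and endothelial markers served as a rough reference for it. In the oligodendrocyte-like class, Cldn5 and the 6 further endothelial markers were at 0.0219% to 0.190% of their endothelial-like level in DTRneg and at 0.0270% to 0.192% in DTRpos. Iigp1 (0.0399% and 0.0275%, from 3 and 2 UMIs) and Ifi47 (0.103% and 0.0825%, from 4 and 3 UMIs) lay inside these ranges. These counts are too few to tell free RNA from low expression. Irgm1 (1.04% and 0.428%) and Igtp (0.438% and 0.392%) lay above, and Irgm2 lay inside in DTRneg (0.174%) and above in DTRpos (0.246%). In the precursor-like class the markers reached at most 1.13% and 1.18%, while Irgm1 was at 13.8% and 13.7% of its endothelial-like level and Igtp at 2.96% and 2.57%. Irgm2 stayed within the markers there, at 0.439% and 1.01%. In the mural-like class the highest marker, Flt1, was at 2.20% and 2.74%, and Iigp1 at 21.3% and 6.11%. Family-positive precursor-like cells had a UMI of the 6-marker endothelial list in 26.2% of cells in DTRneg and 19.4% in DTRpos, against 24.4% and 21.2% of the negative ones, and the list gene Itm2a was itself at 58.3 and 53.97 CPM in that class. Positive oligodendrocyte-like cells were deeper than negative ones (medians of 8864 against 7647 and 8773.5 against 6386.5 UMIs). The list was seen more often in these positive cells, but in only 3 cells per library. The shares were 8.57% (3 of 35) against 3.13% in DTRneg and 13.6% (3 of 22) against 2.58% in DTRpos. In cells outside the classes these shares were 26.7% against 11.7% and 23.2% against 5.54%. Cells that the marker rule left outside the classes, where choroid plexus markers summed to 63474 and 15934 CPM, held 132 and 82 family UMIs.

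Over cells, 210 of 477 endothelial-like cells had a UMI of at least 1 member in DTRneg (44.0%, 39.5 to 48.6%) and 199 of 354 in DTRpos (56.2%, 50.9 to 61.5%). Depth differed between the libraries, with median UMIs of 2006 and 1633.5 in this class. With every cell thinned to 1500 UMIs and shallower cells left out (321 and 204 cells kept), the shares were 37.8% and 53.9%. By gene, unthinned, Iigp1 was the most often detected, in 18.4% and 28.5% of endothelial-like cells. Ifi47 was in 16.1% and 22.3%, Igtp in 14.9% and 19.5%, Irgm1 in 11.5% and 14.7%, and Irgm2 in 10.7% and 14.7%. Tgtp1 was in 4.82% and 7.34% and Tgtp2 in 5.66% and 7.34%. For all 7 genes the share was higher in DTRpos, as it was for 36.7% of the 7696 genes with at least 20 UMIs. In oligodendrocyte-like cells, at median depths of 7660 and 6401 UMIs, 0.943% and 0.853% of cells had a UMI of any member, and 0.207% and 0.211% after thinning. Igtp and Irgm1, which lay above the marker range there, are among the members counted in these shares.

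Members were detected together in the same endothelial-like cells. Of the 71 Igtp-positive cells in DTRneg, 73.2% also had a UMI of another member, against 34.2% of the 406 Igtp-negative cells, and in DTRpos the shares were 82.6% of 69 and 45.6% of 285. Over the 7 genes the share in positive cells ran from 61.0% (Ifi47) to 85.2% (Tgtp2) in DTRneg and from 68.3% (Iigp1) to 84.6% (Irgm2) in DTRpos. The positive cells were also deeper, for Igtp with medians of 2246 against 1959.5 UMIs in DTRneg and 1921 against 1599 in DTRpos, and the part of depth in the co-detection was not tested. At least 2 members were found in 95 cells of DTRneg (19.9%) and 105 of DTRpos (29.7%). No cell had all 7, and 6 members were found in 6 and 2 cells. The richest cell, in DTRneg, held 36 family UMIs of its 3055, among them 20 of Iigp1, 6 of Igtp and 6 of Irgm2.

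**Figure D3:**
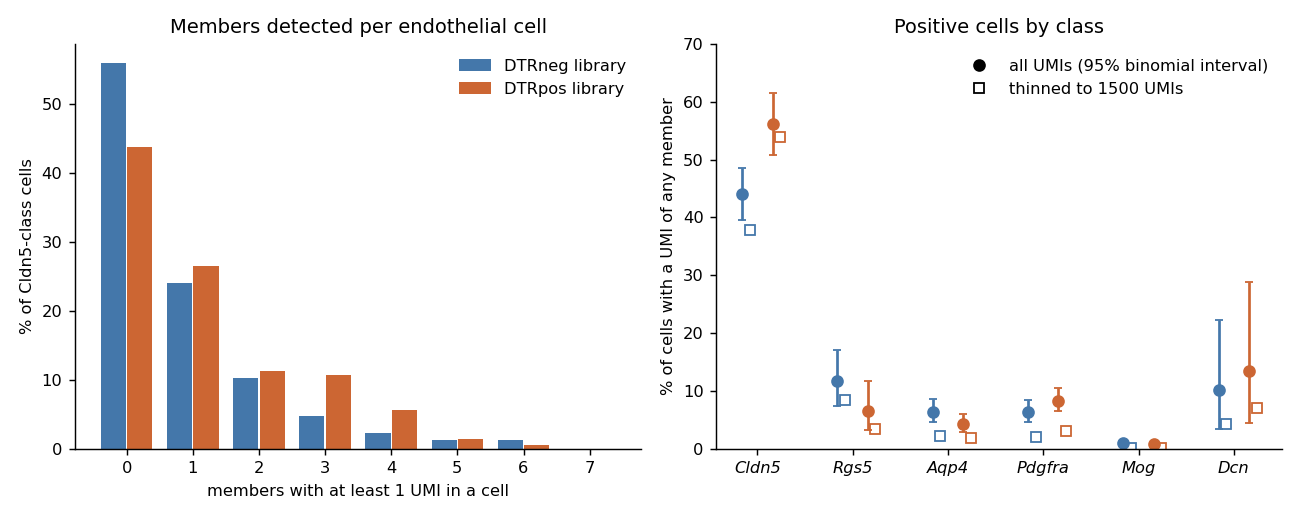
Left, the share of Cldn5-class cells by the number of members with at least 1 UMI, in DTRneg (blue) and DTRpos (orange). Right, the share of cells in each class with a UMI of any member, as counted (circles, 95% Clopper-Pearson intervals) and with cells thinned to 1500 UMIs (squares). The DTRpos bars are higher from 1 to 5 members, and in the Cldn5 class the shares were 44.0% and 56.2% as counted.

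All 7 members were higher in endothelial-like cells of DTRpos than of DTRneg, by 1.49-fold to 1.70-fold. The question is what loss of regulatory T cells changes in hippocampal cells, and with 1 library per genotype the difference cannot be told apart from a difference between 2 pools of mice or 2 library preparations. Irgm1 had a log2 ratio of 0.77 (95% exact conditional interval for counting error 0.27 to 1.26), Irgm2 0.75 (0.25 to 1.26), Tgtp1 0.70 (-0.09 to 1.499) and Tgtp2 0.68 (-0.02 to 1.39). Igtp was at 0.66 (0.28 to 1.05), Iigp1 at 0.62 (0.34 to 0.91) and Ifi47 at 0.58 (0.18 to 0.98). The intervals of the low-count pair Tgtp1 and Tgtp2 included 0, and how many of all genes had an interval above 0 was not counted. The levels behind these ratios are those given above for each gene, and the lowest and highest ratio of the 7, 0.58 and 0.77, lay inside the interval of every other member.

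The median of the members was 0.68, against 0.04 for the 7696 genes with at least 20 UMIs in this class. A log2 ratio above 0 was found in 7 of 7 members and in 54% of all genes. A ratio of at least 0.5, a threshold chosen after the values were seen, was found in 7 of 7 and in 13% of all genes. No member reached 2-fold, which 2.49% of all genes did. Summed, the family had a log2 ratio of 0.66 (0.50 to 0.82), with 1.31 UMIs per cell in DTRneg and 1.84 in DTRpos. Without the 5 richest cells of each library the ratio was 0.78, and over 10 alternatives it ran from 0.51 to 0.78. The regulators together had 0.72 (0.46 to 0.97) and the effectors 0.62 (0.41 to 0.83).

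Of 6 immune-cell markers, Ptprc, Cx3cr1, Csf1r, C1qa and Cd3e had 0 UMIs in endothelial-like cells of both libraries, and Cd4 had 0 and 1.501 CPM. Other values did differ between the libraries in this class. Choroid plexus markers, mainly Ttr, summed to 1741 CPM in DTRneg and 34.5 CPM in DTRpos. Of the dissociation-stress list, Hspa1a was at 2233 and 1688 CPM and Hspa1b at 1384 and 813 CPM, while Fos, Jun, Junb and Egr1 differed less (the list summed to 15714 and 14090 CPM). Their part in the result was not tested. The endothelial list itself summed to 11332 and 11182 CPM.

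Endothelial-like cells were split by segment markers, at least 2 UMIs of 1 list and more than of either other. Capillary cells, 371 in DTRneg and 290 in DTRpos, had 515 CPM of family UMIs (467 to 567) and 904 CPM (826 to 988), a log2 ratio of 0.81 (0.62 to 1.004). Venous cells, 54 and 22, had 935 and 1122 CPM (log2 0.26, -0.19 to 0.71). Arterial cells, 17 and 13, had 1747 and 1683 CPM (log2 -0.05, -0.62 to 0.50), but 1 cell held 36 of the 62 arterial UMIs in DTRneg, and without the richest cell the levels were 801 and 1099 CPM. The difference between segments was not tested. In capillary cells all 7 members were higher in DTRpos, from 0.33 (Tgtp2, -0.56 to 1.21) to 1.03 (Irgm2, 0.44 to 1.63), with Iigp1 at 0.97 (0.62 to 1.32). Of all 7015 genes with at least 20 UMIs in capillary cells, 53.2% were higher in DTRpos.

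**Figure D4:**
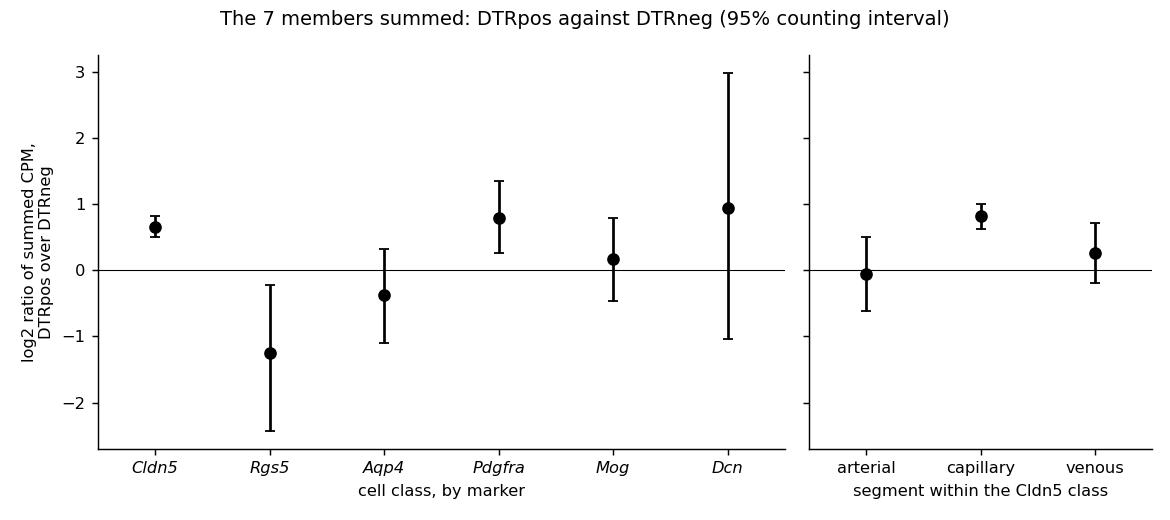
Log2 ratio of the summed CPM of the 7 members, DTRpos over DTRneg, in 6 marker classes (left) and in 3 segments of the Cldn5 class (right), with 95% exact conditional intervals for counting error. The ratio was 0.66 in the Cldn5 class, 0.79 in the Pdgfra class and -1.26 in the Rgs5 class.

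In the other classes the direction of the family ratio varied. In precursor-like cells the family was higher in DTRpos (46 and 82 UMIs, 12.8 and 22.1 CPM, log2 0.79, 0.26 to 1.35). Irgm1 held 33 of the 46 and 57 of the 82 UMIs, with a ratio of 0.75 (0.11 to 1.41), and Igtp had 0.46 (-0.69 to 1.66). Blood genes, mainly haemoglobins, also differed there, summing to 3239 CPM in DTRneg and 32.1 CPM in DTRpos, and their part was not tested. In mural-like cells the family was lower in DTRpos, with 38 and 10 UMIs (93.0 and 38.9 CPM, log2 -1.26, -2.43 to -0.22). Iigp1 had 18 and 5 UMIs (log2 -1.18, -2.96 to 0.30), Ifi47 7 and 0, and Irgm2 4 and 0. Other genes also differed between the libraries in this class. The mural marker Acta2 was at 440 CPM in DTRneg and 58.4 CPM in DTRpos, and the choroid plexus marker Ttr at 3601 and 19.5 CPM. The mural list as a whole summed to 30409 and 34749 CPM. The part of these differences in the family ratio was not tested. The 5 richest mural-like cells held 19 of the 38 UMIs in DTRneg and 5 of the 10 in DTRpos, 50% in each. Without them the ratio was -1.25. Because this removed the same share from both libraries, it cannot show whether a few cells carried the difference.

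The intervals of the remaining classes included 0. Astrocyte-like cells had 45 and 30 UMIs (log2 -0.38, -1.10 to 0.32), with Irgm1 at -0.997 (-2.23 to 0.13) and Igtp at -0.34 (-1.48 to 0.75). Oligodendrocyte-like cells had 54 and 38 UMIs (log2 0.17, -0.47 to 0.79) and the Dcn class 5 and 6 (log2 0.94, -1.04 to 2.99).

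For the guanylate-binding proteins, the GTPase partners of IRGs at vacuoles, all 6 genes with at least 20 UMIs were higher in DTRpos, against 54% of all genes. Their median log2 ratio was 0.78. Gbp5 was at 0.93 (0.53 to 1.33; 93.9 and 179 CPM), Gbp7 at 0.83 (0.55 to 1.11; 195 and 347 CPM), Gbp2 at 0.81 (0.44 to 1.19) and Gbp4, the lowest, at 0.47 (0.12 to 0.83). Of 13 class I antigen-presentation genes, 9 were above 0 and 5 at 0.5 or more, against 54% and 13% of all genes. B2m, the light chain of class I, was at 0.68 (0.56 to 0.80; 1067 and 1708 CPM), Tap1 at 0.68 (0.13 to 1.22), and the immunoproteasome subunit Psmb9 at 0.65 (0.28 to 1.01). H2-D1, a class I heavy chain, was at 0.09 (-0.04 to 0.21), and the transporter subunit Tap2 was lower, at -0.63 (-1.31 to 0.02).

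Genes that answer mainly to type I interferon had a median of 0.32, against 0.39 for the class I list. Of 9 with at least 20 UMIs, 7 were above 0 and 4 at 0.5 or more, against 54% and 13% of all genes. The most abundant, Isg15 (722 and 902 CPM), was at 0.32 (0.16 to 0.48), and Bst2 (433 and 618 CPM) at 0.51 (0.32 to 0.71). Rsad2 was at 0.73 (0.32 to 1.14) and Ifit3 at 0.55 (0.13 to 0.96), while Ifit1 was at -0.08 (-0.53 to 0.37) and Rtp4 at -0.07 (-0.44 to 0.29). Of the receptors and kinases 2 of 6 were above 0, against 54% of all genes, and their median was -0.27. Jak2 was at -0.70 (-1.75 to 0.27), Ifngr1 at -0.44 (-1.05 to 0.16), Jak1 at -0.40 (-0.96 to 0.15) and Ifngr2 at 0.22 (-0.69 to 1.12). Irf1, a transcription factor that acts at the ISRE, was at 0.24 (-0.14 to 0.62; 133 and 158 CPM). The inhibitor Socs3 was lower in DTRpos, at -0.88 (-1.42 to -0.36), and Usp18 was at -0.11 (-0.75 to 0.51). Interferon genes themselves (Ifng, Ifnb1, Ifna4, Ifnl2, Ifnl3) had 0 UMIs in the class.

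**Figure D5:**
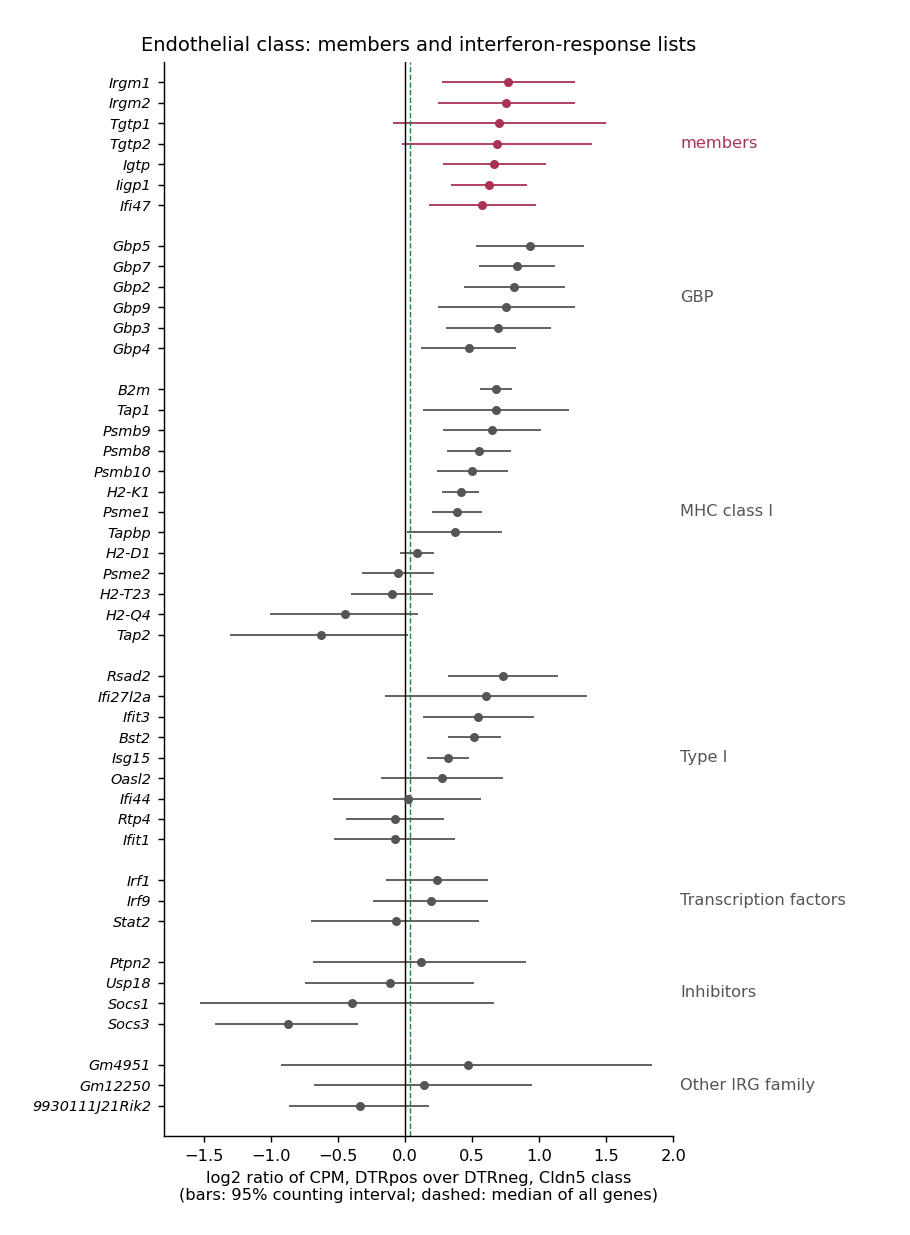
Log2 ratio of CPM, DTRpos over DTRneg, in the Cldn5 class for the 7 members (red) and for genes of 6 lists with at least 20 UMIs over both libraries, with 95% exact conditional intervals. The dashed line is the median of all genes, 0.04. The members lay between 0.58 and 0.77 and the 6 Gbp genes between 0.47 and 0.93, whereas Irf1 lay at 0.24 and Irf9 at 0.19.

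Of 9 further IRG-family genes, 3 had at least 20 UMIs in endothelial-like cells, and all 3 ratios were below those of the 7 members: Gm12250 (33 and 24 UMIs, log2 0.14, -0.68 to 0.95), Gm4951 (11 and 10 UMIs, 0.47, -0.93 to 1.84) and 9930111J21Rik2 (94 and 49 UMIs, -0.34, -0.87 to 0.18). The last of these was also at 75.8 and 85.6 CPM in mural-like cells. Genes of the LC3-conjugation system, which guides IRGs to vacuoles, had a median of -0.01 over all 10, from Atg7 at -0.81 (-2.45 to 0.62) to Gabarap at 0.15 (-0.07 to 0.36).

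Over the 12 class sums, the genes whose level on the log2(CPM + 1) scale most resembled that of the summed family, out of 10668 compared, were Mknk2 (Pearson r 0.99), B2m (0.98), Psmb8 (0.97), Nmi (0.96), Tap1 (0.96), Vim (0.96), H2-K1 (0.96), Trim56 (0.96), Prorp (0.96) and Irf9 (0.95). The marker Cldn5 itself was at 0.80 and ranked 434. These values are descriptions over sums that share libraries and depth. Between members, r ran from 0.73 (Irgm1 with Iigp1) to 0.995 (Tgtp1 with Tgtp2, whose UMIs cannot be cleanly separated), and Igtp with Irgm1 was at 0.94.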

How the data were processed

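The deposited matrices give whole UMI counts for each gene in each barcode, not normalized, and the submitters' processing notes name Cell Ranger 6.1.0, Seurat and the mm10 build. The annotation release is not given in the sources used here; 97.9% of the gene IDs match GENCODE release 21 with the version. IDs that share a symbol were summed. Cells needed at least 500 genes and under 15% mitochondrial UMIs. Scrublet (Scanpy 1.11.5) then marked 242 of 7105 DTRneg cells and 158 of 5849 DTRpos cells as doublets, which were removed. Counts were summed per library and class and given as CPM. Classes were compared with edgeR 4.0.16 (R 4.3.3; quasi-likelihood test, TMM, filterByExpr, library as block, adjusted p under 0.05). DTRpos and DTRneg were compared as ratios with exact conditional binomial intervals, with no test. Binomial and Poisson intervals are at 95%, and a count of 0 is read against a floor of 3 UMIs. On simulated counts for 13699 genes, the Cldn5 class was tested against each other class. The test recovered 22% of 2-fold, 40% of 4-fold, 68% of 8-fold and 84% of 16-fold changes, with 0 false calls. A false call had to pass against every other class at once. The 0 therefore says little about the rate of false calls, and nothing about calls between single class pairs.

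The members, gene lists, class rule, tests and most alternatives were chosen with earlier results of these data known, among them that interferon-gamma response genes were higher in DTRpos endothelial cells, so that pattern is not independent support. Named were all 7 members, list genes with at least 20 UMIs in the Cldn5 class, and the 10 genes with the highest likeness over genes with at least 20 CPM in at least 1 sum (pseudocount 1). The sequences are RefSeq's. One gene of the lists is not reported here.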

Additional observations from a re-analysis of the deposited data

Results flagged for a closer look

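The summed family differed in direction between classes. It was higher in DTRpos in endothelial-like cells (log2 ratio 0.66) and in precursor-like cells (0.79), and lower in mural-like cells (-1.26, from 38 and 10 UMIs). These opposite directions rest on 1 library per genotype, and the difference between classes was not tested.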

How the results depend on the processing

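The endothelial-like family ratio ran from 0.51 to 0.78 and stayed above 0 under all 10 alternatives. That of mural-like cells stayed below 0, from -1.90 with at least 1000 genes per cell to -0.81 with at least 1 marker UMI and none of the other 5, and that of precursor-like cells above 0 (0.65 to 0.90). The oligodendrocyte-like ratio, 0.17, lay between -0.03 and 0.29, and so had no firm sign. Values that moved were the Dcn-class ratio with doublets kept (-1.65, from 0.94), the members past 2-fold in oligodendrocyte-like cells at 10 UMIs or more (1, Irgm2, from 0), and the endothelial-like positive share, 37.8% in DTRneg after thinning to 1500 UMIs and 63.5% in DTRpos with at least 1000 genes. The cause was not tested, except that thinning leaves fewer UMIs. Shares in astrocyte-like, precursor-like and oligodendrocyte-like cells also fell with thinning. Members above each other class numbered 7 without the replicate block and with no filter, 6 with the looser class rule or at 1500 UMIs, and 5 under DESeq2 or, of 6 tested, at 1000 UMIs (added after seeing the data), against 7, and 7 in each library alone, with no test. Genes above each other class numbered 954 of 13699 tested (6.96%), against 608 of 27823 with DESeq2 (2.19%) and 627 of 10361 at 1000 UMIs (6.05%). The share was 6.35% without the block, 3.07% with no filter, 5.68% with the looser class rule and 5.93% at 1500 UMIs. No paired analysis was possible because each genotype has 1 library. At this depth, 1 UMI decides several of the values for the Dcn class.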

Other observations

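Type I interferon genes varied in glial classes, and those named here were picked after their values were seen. In oligodendrocyte-like cells 8 of 9 with at least 20 UMIs were higher in DTRpos, as were 9052 of all 14457 genes with that count. The most abundant, Ifi27l2a, was lower (805 and 363 UMIs, log2 -0.48, -0.66 to -0.29), while Isg15 had 24 and 89 UMIs (log2 2.56, 1.90 to 3.28), Rsad2 14 and 68 (2.95, 2.11 to 3.90) and Mx1 0 and 21. These came from few cells: the 5 DTRpos cells richest in the list held 70 of the 89 Isg15 UMIs, 52 of the 68 Rsad2 UMIs, all 21 Mx1 UMIs and 13 of the 38 family UMIs. In precursor-like cells 5 of 7 were higher, as were 7195 of all 12782 genes with at least 20 UMIs in that class. Isg15 was at -0.57 (-1.98 to 0.77) and Rsad2 at -0.04 (-1.17 to 1.09). Bst2 had 4 and 37 UMIs there (3.17, 1.69 to 5.12), 25 of the 37 in 5 cells. Ifit3 had 30 and 65 UMIs (1.08, 0.43 to 1.75), spread over 24 and 47 cells. Among endothelial-like cells, the chemokine Cxcl9 had 0 and 18 UMIs, all 18 in 1 cell.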
